A study of Homo sapiens with 8 samples.

Results

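Adding palbociclib to JQ1 was examined in the 1892 cells, of 5738 in the series, that came from 2 single-cell libraries of the same selection experiment. The 1024 cells of the JQ1+palbociclib library were set against the others, from JQ1-B, the library of cells given JQ1 alone, and the members were chosen by library only. All cells were SUM159, a triple-negative breast cancer line with a mesenchymal-like look, carrying the ClonTracer library of lentiviral DNA barcodes. JQ1-B cultures had been passaged under JQ1 at 100 nM, and JQ1+palbociclib cultures under JQ1 at 100 nM with palbociclib at 160 nM, for up to 18 passages in both cases. Each library was a pool of equal numbers of cells from replicate cultures, and because one JQ1+palbociclib culture had died out, that pool stood for 2 cultures. The cells of separate cultures cannot be told apart in the pools, so each side is 1 library and no test was made between them.

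JQ1-A and 3 further groups of the series served as references. JQ1-A cells had received the same JQ1 dose in a separate experiment, palbociclib cells had received palbociclib alone at 160 nM beside JQ1-B, JQ1+paclitaxel cells had received JQ1 with 0.6 nM paclitaxel beside JQ1-A, and DMSO cells had been passaged with vehicle beside JQ1-A. No vehicle library was labelled as part of the experiment with palbociclib. The difference of JQ1-A from JQ1-B, which had the same drug in different experiments, is the only view these data give of how far libraries of 1 treatment lie apart.

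JQ1 is an inhibitor of the BET bromodomain proteins, which bind acetylated chromatin and help RNA polymerase II to elongate transcripts of many genes, among them MYC. Palbociclib inhibits CDK4 and CDK6, the kinases that D-type cyclins activate. These kinases phosphorylate RB1, which otherwise holds back the E2F transcription factors and with them the genes of DNA replication and mitosis.

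The libraries were close in depth, with 24240835 UMIs (unique molecular identifiers, each standing for 1 captured transcript) in JQ1+palbociclib and 20301289 in JQ1-B, or means of 23673 and 23389 UMIs per cell. Their cells had medians of 3870 and 3716 detected genes, and no cell barcode occurred in both. The median share of mitochondrial UMIs per cell was 7.18% in JQ1+palbociclib, 5.03% in JQ1-B, 5.35% in JQ1-A and between 3.72% and 5.58% in the other libraries, so JQ1+palbociclib was the highest of the 8. Both markers of the mesenchymal-like line, VIM and CD44, were expressed, but they went opposite ways. The filament gene VIM was at 3279 CPM (UMIs scaled to 1000000 per library) in JQ1+palbociclib and 4047 in JQ1-B (ratio 0.810). CD44 was at 437 and 289 CPM (ratio 1.51). The receptor gene ESR1 had 3 and 1 UMIs, PGR had none, and the leukocyte gene PTPRC had 0 and 2 UMIs. The macrophage gene CD68 was at 7.71 and 12 CPM, and the epithelial gene EPCAM had 1 and 3 UMIs. The keratin gene KRT7, which was not among the markers, was expressed at 550 and 870 CPM.

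Genes averaging 10 CPM or more over the 2 libraries were compared, 6502 in all, of which 248 (3.81%) were at least 1.5-fold higher in JQ1+palbociclib than in JQ1-B and 118 (1.81%) were at least 1.5-fold lower. Of these, 147 (2.26%) were also 1.5-fold higher than in JQ1-A and 53 (0.815%) were also 1.5-fold lower. Between the JQ1 libraries themselves, 43 genes (0.661%) were 1.5-fold higher in JQ1-A than in JQ1-B and 32 (0.492%) were lower. At 3-fold the counts were 13 higher and 2 lower for JQ1+palbociclib, against 0 and 0 for JQ1-A. Genes lay a median of 0.184 from the median log2 ratio for JQ1+palbociclib and 0.116 from that for JQ1-A, each against JQ1-B. Those median log2 ratios were 0.0177 and -0.0507. The balance of higher to lower genes depended on scaling and level: with edgeR's TMM factors, which centre the bulk of the genes, 200 were higher and 156 lower. It also turned round with the level required, to 35 higher and 40 lower among genes with a mean of 50 CPM or more. Of the 248 higher genes 72 were under 10 CPM in JQ1-B and so were compared only through their level in JQ1+palbociclib. The plot of gene levels in both libraries shows the called genes lying on both sides of the diagonal at all levels of expression.

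**Figure D1:**
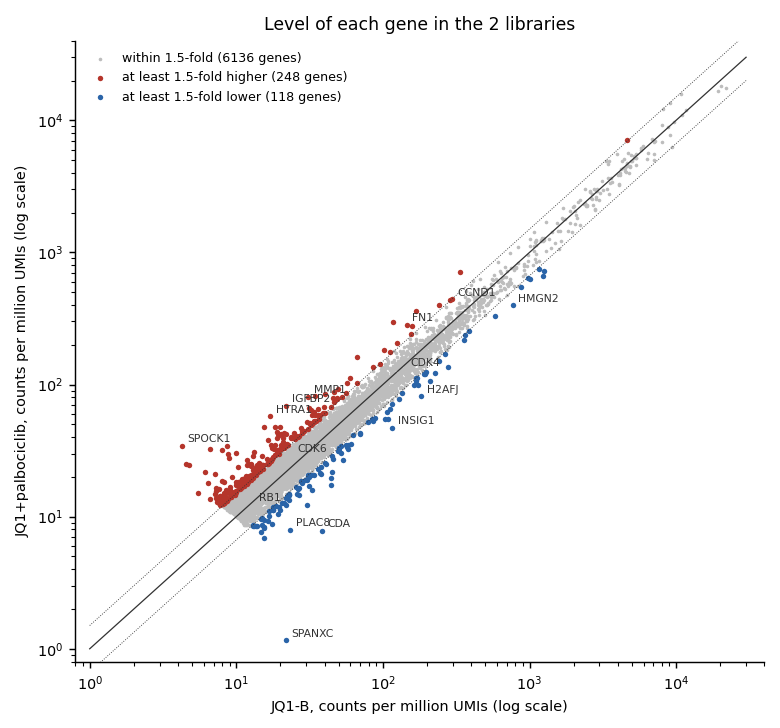
Level of each of the 6502 genes in JQ1-B (horizontal axis) and JQ1+palbociclib (vertical axis), in CPM on log scales. Each point is a gene, with 248 at least 1.5-fold higher in JQ1+palbociclib in red and 118 at least 1.5-fold lower in blue, and SPOCK1 lies farthest above the diagonal and SPANXC farthest below it.

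In the D-cyclin axis, on which palbociclib acts, CCND2 was far higher than in JQ1-B at a low level. CCND1 lay just under the 1.5-fold mark to JQ1-B, and CCND3 and the kinase genes differed less from that library. CCND1, which encodes cyclin D1, was at 443 CPM in JQ1+palbociclib, 297 in JQ1-B, 253 in JQ1-A, 204 in JQ1+paclitaxel and 236 in palbociclib alone, with 181 in DMSO, 193 before treatment and 349 in paclitaxel. JQ1+palbociclib was the highest of the 8 libraries, and the ratio to JQ1-B was 1.49 (95% interval 1.45 to 1.54, exact for the split of UMIs between libraries and covering counting error only, as do all intervals here), just under the 1.5-fold mark. Against JQ1-A the ratio was 1.75. Cells thinned to 10000 UMIs each held a mean of 4.44 CCND1 UMIs in JQ1+palbociclib, 2.82 in JQ1-B and 2.5 in JQ1-A.

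CCND2, encoding cyclin D2, was nearly confined to the libraries given palbociclib. It had 38 UMIs in JQ1+palbociclib and 27 in palbociclib alone, against 2 before treatment, 1 in JQ1+paclitaxel and 0 in JQ1-B, JQ1-A, DMSO and paclitaxel. With 3 UMIs over the library as the limit that a count of 0 allows, it was at least 10.6-fold higher than in JQ1-B, at least 8.46-fold higher than in JQ1-A and at least 5.55-fold higher than in DMSO. At 1.57 CPM it was below the level set for comparison and was chosen for its place in this list. CCND3 (ratio 1.05), CDK4 (0.918, from 142 to 130 CPM), CDK6 (1.20, from 24.0 to 28.8 CPM) and RB1 (0.934, 0.790 to 1.11, from 13.2 to 12.3 CPM) were all within 1.5-fold of JQ1-B. Against JQ1-A CDK6 passed the mark (1.65, 1.43 to 1.90), while CCND3 (1.23), CDK4 (1.10) and RB1 (0.969) did not. The 5 genes of this list above the level for comparison had a median log2 ratio of 0.07 to JQ1-B and 0.30 to JQ1-A. Of the 5, 0 passed 1.5-fold against JQ1-B, beside 3.81% of all genes higher and 1.81% lower.

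The next tier of the cycle was mixed. CCNE1, the cyclin E1 gene whose partner CDK2 can phosphorylate RB1 as well, was at 10.7 CPM against 5.66 (ratio 1.89, 1.51 to 2.37) and 4.02 in JQ1-A, below the level for comparison with a mean under 10 CPM. CDK2 itself was at 7.26 and 8.47 CPM. E2F1 was at 27.0 against 21.3 CPM (ratio 1.27), and its ratio to JQ1-A was 1.67. Its DNA-binding partners moved apart, with TFDP1 lower (99.6 against 173 CPM, ratio 0.575) and TFDP2 higher (27.1 against 17.4 CPM, ratio 1.55). CCNA2, the cyclin A2 gene of S and G2 phase, was at 19.8 CPM, the lowest of the 8 libraries, against 31.5 in JQ1-B and 31.4 in JQ1-A (ratio 0.630). In this list of cyclin E, CDK2 and E2F genes 1 of 12 members was higher and 2 were lower, beside 3.81% and 1.81% of all genes.

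No gene of the CDK inhibitor list passed the mark upward. CDKN2C, encoding the CDK4/6 inhibitor p18, was at 20.6 CPM, lower than in any other library, where it lay between 29.8 and 36.8 CPM (ratio to JQ1-B 0.643). CDKN3, a phosphatase gene of the cell cycle, was at 106 CPM against 169 in JQ1-B and 134 to 268 CPM in the other 6 (ratio 0.631). CDKN1A, encoding p21, was at 38.7 CPM against 54.7 in JQ1-B and 51.2 in JQ1-A, with a ratio of 0.708 that did not reach the mark. CDKN1C had 6 UMIs against 33 (ratio 0.152, 0.0522 to 0.368), while CDKN2A had 61 against 62. Of the 4 members above the level for comparison, 2 were lower and 0 were higher, beside 1.81% and 3.81% of all genes. Their median log2 ratio was -0.57, beside 0.02 in JQ1-A.

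BRD2 and BRD3, which encode BET proteins, had ratios of 0.851 and 1.11, and HEXIM1, an inhibitor of the elongation kinase and a common readout of BET inhibition, was at 29.0 against 31.7 CPM. In the list of BET proteins and elongation factors 1 of 8 members was higher (SERTAD2, ratio 1.55) and 0 were lower. MYC was at 569 CPM in JQ1+palbociclib, 401 in JQ1-B and 522 in JQ1-A, so its ratio was 1.42 against one JQ1 library and 1.09 against the other. Of 17 measured genes of its network 2 were higher and 0 lower, beside 3.81% and 1.81% of all genes. Both encode MYC antagonists: MXD4 at 397 against 242 CPM (ratio 1.64, and 1.73 against JQ1-A) and MXI1 at 13.5 against 7.44 CPM (ratio 1.81, and 1.46 against JQ1-A). MXI1 was under 10 CPM in JQ1-B, and among the 16 network genes at that level there 1 was higher. The other antagonists did not share a direction, with log2 ratios of 0.36 for MNT and -0.50 for MXD3, and the list median was -0.11. MXD4 was at 310 CPM in palbociclib alone and between 77.7 and 118 CPM in the 3 libraries with neither drug. Of the BCL2 family, BCL2L1, the antiapoptotic BCL-xL gene, had a ratio of 1.37, and 1.57 against JQ1-A. Of the 8 family members 0 passed 1.5-fold against JQ1-B in either direction, a count near the share over all genes.

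Some genes of the late cell cycle were lower with both drugs. In the G2/M list used for cell cycle scoring, 5 of 50 members (10.0%) were at least 1.5-fold lower, beside 1.81% of all genes. Of the 50, 0 were higher, beside 3.81% of all genes. Below a ratio of 1 were 38 members, and the median log2 ratio was -0.16. By called phase that median was 0.59 in G1, -0.28 in S and 0.00 in G2/M. CDC20, an activator of the anaphase-promoting complex, was at 55.1 CPM, below the 103 of JQ1-B, the 96.7 of JQ1-A and the 79.3 of palbociclib alone, and below the 141 to 262 CPM of the other 4 libraries, DMSO and pre-treatment included. Its ratio to JQ1-B was 0.534 (0.498 to 0.572). The others past the mark were FAM64A (0.543), ANP32E (0.630), HMGB2 (0.631) and CDCA3 (0.633). The list of spindle, kinetochore and APC/C genes lay near JQ1-B, with a median of -0.08. Of 44 members 2 were lower (4.55%, CDC20 and PLK1) and 0 were higher. PLK1, a mitotic kinase, had a ratio of 0.612 and MYBL2, a transcription factor that drives G2/M genes, 0.447 (0.399 to 0.501, 19.7 against 44 CPM). The S-phase list had a median of 0.04 and the DNA replication list 0.01, beside -0.20 and -0.12 in JQ1-A. Members past the mark were the helicase-complex gene GINS2 (0.548) and the thymidine kinase gene TK1 (0.600). Of these 0 also passed against JQ1-A, where GINS2 was at 0.694.

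Among histone variant and high-mobility-group genes more members were lower. Of 20 measured members 8 (40.0%) were at least 1.5-fold lower and 0 were higher, beside 1.81% and 3.81% of all genes. The median log2 ratio was -0.56, with -0.16 in JQ1-A. HMGN2, whose protein binds nucleosomes, was at 398 CPM against 771 in JQ1-B and 610 in JQ1-A (ratio 0.516, 0.503 to 0.529). Palbociclib alone was at 363 CPM and the other 4 libraries were between 566 and 736 CPM, so the libraries given palbociclib formed the low end of the 8. HMGB1, which bends DNA, had a ratio of 0.567 (718 against 1265 CPM). H2AFJ, a replication-independent H2A variant, did not follow palbociclib: it was at 81.6 CPM in JQ1+palbociclib, 183 in JQ1-B, 164 in JQ1-A and 223 in palbociclib alone, the highest of the 8. H2AFX (0.588), H1F0 (0.611), HIST1H1C (0.615), HIST1H2BK (0.621) and HMGB2 (0.631) were the other genes past the mark. Against JQ1-A 4 of the 8 also passed, HMGN2, HMGB1, H2AFJ and HMGB2, while H2AFX and HIST1H2BK had ratios of 0.869 and 0.883.

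All 10 measured tubulin genes were below a ratio of 1, and their median log2 ratio was -0.44 beside -0.13 in JQ1-A. TUBA1B was at 666 CPM against 1240 in JQ1-B, 1266 in JQ1-A and 800 in palbociclib alone (ratio 0.537), and was the only tubulin past 1.5-fold. HMGN2, HMGB1 and TUBA1B have near-identical copies elsewhere in the genome, so how their reads were shared out is uncertain.

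Lipid synthesis was the metabolic group with the most genes past the mark. Of 24 measured genes of cholesterol and fatty acid synthesis 7 (29.2%) were lower and 0 higher, beside 1.81% and 3.81% of all genes. The median log2 ratio was -0.34, although JQ1-A was also below JQ1-B at -0.25. INSIG1, which restrains the processing of the SREBP transcription factors and is itself one of their targets, was at 47.2 CPM against 116 in JQ1-B and 97.8 in JQ1-A (ratio 0.408, 0.380 to 0.438). Only paclitaxel, at 26.0 CPM, was lower, and the remaining libraries lay between 69.5 and 132 CPM. SREBF1, encoding SREBP-1, had a ratio of 0.502, FASN, the fatty acid synthase, 0.504, and SCD, the stearoyl-CoA desaturase, 0.508. In the cholesterol branch MVD (0.561), IDI1 (0.634) and EBP (0.642) passed the mark, whereas SQLE and LSS were level with JQ1-B at log2 ratios of 0.03 and 0.01. Of the 7 genes 3, INSIG1, SREBF1 and SCD, were also past the mark against JQ1-A, where FASN (0.674), MVD (0.734), EBP (0.736) and IDI1 (0.758) were not. The glycolysis list had 4 of 22 genes lower (18.2%) and 0 higher, with a median of -0.23. The 4 were ALDOA (0.619), PGAM1 (0.639), TPI1 (0.640) and ENO1 (0.665), but 0 of them also passed against JQ1-A (0.683 to 0.798).

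Promoter sequences are shown for a mitotic, a chromatin and a pair of lipid genes that were lower in JQ1+palbociclib, because a shared element, the CCAAT box bound by NF-Y, is known in promoters of all these classes. The genes were picked by hand as examples, so their boxes do not show how common the element is among the lower genes. The sequences are the 250 bases before the transcription start from RefSeq on GRCh38.p14, read on the strand of the gene, with CCAAT or its reverse complement ATTGG in capitals. CDC20 is at chr1:43358731-43358980 on the plus strand, HMGN2 at chr1:26472190-26472439 on the plus strand, INSIG1 at chr7:155297628-155297877 on the plus strand and MVD at chr16:88663092-88663341 on the minus strand.
CDC20: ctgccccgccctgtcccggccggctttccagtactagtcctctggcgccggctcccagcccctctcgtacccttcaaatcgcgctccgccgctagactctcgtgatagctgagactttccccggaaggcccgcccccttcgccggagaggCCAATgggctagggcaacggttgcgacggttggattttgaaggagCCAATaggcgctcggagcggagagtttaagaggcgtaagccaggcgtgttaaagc
HMGN2: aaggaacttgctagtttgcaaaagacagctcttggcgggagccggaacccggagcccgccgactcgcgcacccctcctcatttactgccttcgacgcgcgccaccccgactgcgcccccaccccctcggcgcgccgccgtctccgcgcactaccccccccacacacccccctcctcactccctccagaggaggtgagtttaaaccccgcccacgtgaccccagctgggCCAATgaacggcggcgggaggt
INSIG1: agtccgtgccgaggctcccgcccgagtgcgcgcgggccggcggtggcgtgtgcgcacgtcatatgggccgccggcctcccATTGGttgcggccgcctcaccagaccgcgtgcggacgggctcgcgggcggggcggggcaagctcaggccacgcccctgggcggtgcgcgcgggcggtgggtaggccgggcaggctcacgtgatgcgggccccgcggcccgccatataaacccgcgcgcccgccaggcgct
MVD: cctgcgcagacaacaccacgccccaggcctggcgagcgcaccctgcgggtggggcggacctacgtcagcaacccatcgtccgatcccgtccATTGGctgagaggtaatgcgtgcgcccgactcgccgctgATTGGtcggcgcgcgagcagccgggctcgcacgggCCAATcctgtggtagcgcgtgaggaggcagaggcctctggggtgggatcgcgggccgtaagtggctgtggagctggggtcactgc

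The CCAAT box lay 100 and 55 bases before the start in CDC20, 22 in HMGN2, 170 in INSIG1 and 159, 120 and 85 in MVD. It occurred on either strand in 36.6% of the 5379 matched promoters of the 6502 genes, in 50 of 97 promoters (51.5%) of the lower genes, in 30 of 41 (73.2%) of the G2/M list and in 13 of 17 (76.5%) of the histone and HMG list. It was in 33% of all promoters. The CHR element of mitotic genes, TTTGAA, was in 8.12% of tested promoters, 8.25% of those of the lower genes, 56.1% of the G2/M list and 11.8% of the histone and HMG list, and in 13.6% of all. The 3 E2F sites searched were rare: TTTGGCGC, TTTCCCGC and TTTGGCGG were in 1.04%, 2.62% and 0.911% of tested promoters (0.553%, 1.42% and 0.568% of all), and in 0, 3 and 0 of the 97 lower genes. The GC box, GGGCGG, was in 70.8% of tested promoters and 59.8% of lower ones (42.3% of all). The sterol-element form TCACNCCAC was in 0.818% of tested and 3.09% of lower ones (0.875% of all), and the AP-1 site TGANTCA in 3.36% and 7.22% (6.60% of all). These shares are counts of letters within the window and were not tested. Fewer than 80% of the higher genes (77.8%), of the lipid genes (79.2%) and of the matrix genes (68.2%) matched a promoter, so no share is given for them.

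The extracellular matrix list had the highest median in JQ1+palbociclib. Of 48 genes for collagens, laminins and other matrix proteins 22 reached the level for comparison, 11 were at least 1.5-fold higher and 1 was lower, with a median log2 ratio of 0.63, while JQ1-A was at 0.28 against JQ1-B. SPOCK1, COL18A1 and FBN1 were under 10 CPM in JQ1-B and reached the level only through JQ1+palbociclib. Among the 18 at 10 CPM or more in JQ1-B 8 were higher, 1 was lower and the median was 0.57. Against JQ1-A 7 of the 11 also passed, and COL6A2 (1.48), COL5A2 (1.35), COL6A1 (1.29) and FN1 did not. SPOCK1, a secreted proteoglycan gene on chromosome 5 (136310987 to 136934068, hg19, minus strand), was at 34.2 CPM against 4.24 in JQ1-B, 9.64 in JQ1-A and 16.6 in palbociclib alone, with 3.48 to 7.95 CPM in the other 4. The difference from JQ1-A (ratio 3.55) was thus smaller than that from JQ1-B (8.08, 6.47 to 10.2). COL18A1, the collagen from which endostatin is cut, was at 34.3 CPM, and the other 7 libraries were between 5.25 and 12 CPM (ratio 3.98). FBLN1, a fibulin of elastic fibres, had a ratio of 3.10 to JQ1-B and 1.82 to JQ1-A. Fibrillin-1 (FBN1, 2.20), versican (VCAN, 2.19), COL6A2 (2.12), TGFBI (2.09), LAMA5 (2.03), COL5A2 (1.72) and COL6A1 (1.61) were the further genes past the mark.

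Fibronectin showed how much rests on the choice of JQ1 library. FN1 was at 284 CPM in JQ1+palbociclib, 260 in palbociclib alone, 247 in JQ1-A, 198 in JQ1+paclitaxel and 146 in JQ1-B, and between 56.1 and 69.6 CPM in the 3 libraries with neither drug. It was 1.94-fold (1.86 to 2.02) above JQ1-B but 1.15-fold above JQ1-A, a smaller gap than that between the JQ1 libraries. The lower gene of the list was COL1A1, the fibrillar collagen gene, at 25.4 CPM against 40.1 in JQ1-B and 53.2 in JQ1-A (ratio 0.633), the lowest of the 8.

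Some genes that remodel the matrix or anchor cells to it were also higher. Among 17 proteases and inhibitors 5 (29.4%) were higher and 0 lower, beside 3.81% and 1.81% of all genes. The median log2 ratio was 0.48, with 0.00 in JQ1-A. The summed level did not follow the median, since thinned cells held a mean of 58.3 UMIs of this list in JQ1+palbociclib, 61.0 in JQ1-B and 55.1 in JQ1-A. HTRA1, a secreted serine protease, was at 57.5 CPM against 17.1 in JQ1-B, 29.2 in JQ1-A and 27.7 in palbociclib alone (ratio 3.36, 2.98 to 3.79). PLAT (1.82), the plasminogen activator, and the inhibitors SERPINE2 (2.08) and TIMP2 (1.88) were also past the mark. MMP1, interstitial collagenase, was at 80.6 CPM against 31.0 in JQ1-B and 13 in JQ1-A, giving ratios of 2.60 and 6.19, but few cells carried much of its level in JQ1-B. There the variance of MMP1 was 18.5 times its mean over thinned cells and 1 cell held 57 UMIs, against a mean of 0.246. In JQ1+palbociclib the variance was 7.01 times the mean and the highest cell held 36.

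Of 9 integrin genes ITGB4 (1.75), ITGA2 (1.55) and ITGAV (1.52) were higher and 0 were lower, beside 3.81% and 1.81% of all genes. ITGA5 and ITGA10 were at log2 ratios of -0.52 and -0.28. ITGB4 was under 10 CPM in JQ1-B (8.82 CPM) and did not pass 1.5-fold against JQ1-A, where ITGA2 and ITGAV did. Among the 8 integrin genes at 10 CPM or more in JQ1-B 2 were higher and 0 lower. Of 31 receptors and adhesion genes of neural type 12 reached the level for comparison, all with ratios above 1. Their median was 0.33, beside -0.06 in JQ1-A. Past the mark were 4 (33.3%), of which CADM1 and CADM3 were under 10 CPM in JQ1-B. CADM1, a cell adhesion gene, was at 21.9 CPM against 1.54 to 7.04 CPM in the other 7 libraries, so palbociclib alone (2.24 CPM) did not share the higher level (ratio to JQ1-B 3.59, and 5.0 to JQ1-A). NRCAM (2.31) was likewise the highest of the 8, at 23.8 CPM. CADM3, at 24.5 CPM, was 5.13-fold above JQ1-B but 1.74-fold above JQ1-A.

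Lists with medians between 0.22 and 0.32 had few genes past the mark. Of 20 targets and members of the YAP and TAZ pathway FSTL1 (2.40), AMOTL2 (1.60) and TEAD1 (1.57) were higher, with a list median of 0.32, the first 2 also against JQ1-A. Of 32 lysosomal genes PSAP (1.68), CTSA (1.64) and GAA (1.63) were higher, with a median of 0.30, but 0 of them passed against JQ1-A (1.48, 1.27 and 1.33). EGFR (1.57) and SPRY4 (1.60), a feedback inhibitor of its signalling, were the 2 of 21 in the EGFR and MAPK list, whose median of 0.22 was below the 0.28 of JQ1-A. Against JQ1-A EGFR passed (1.91) and SPRY4 did not (1.24). In the remaining lists at most 2 genes passed the mark in either direction, except for 3 higher genes of 15 in the list of FOXO targets and insulin and IGF signalling (SESN3, IGFBP2 and BCL6), whose median of 0.17 became -0.07 over the 13 at 10 CPM or more in JQ1-B. S100A2 (0.588) and S100A3 (0.602) were lower among 15 S100 and annexin genes, as were AKR1C1 (0.632) and AKR1C2 (0.597), aldo-keto reductases with shared sequence, while GCLC (1.51), which starts glutathione synthesis, was higher among 21 NRF2 targets. The receptor gene NR4A2 was at 18.7 CPM against 7.93 in JQ1-B (ratio 2.36), but JQ1-A was at 14.9 CPM. Among 9 NF-kB genes, 8 cytokine genes, 12 genes of MHC class I presentation, 68 of nuclear oxidative phosphorylation and 76 of cytosolic ribosomal proteins, 0 passed 1.5-fold in either direction. Since 3.81% of all genes were higher and 1.81% lower, a count of 0 in the lists of 8 to 12 genes lies near that share. The plot of gene lists sets each median beside that of JQ1-A.

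**Figure D2:**
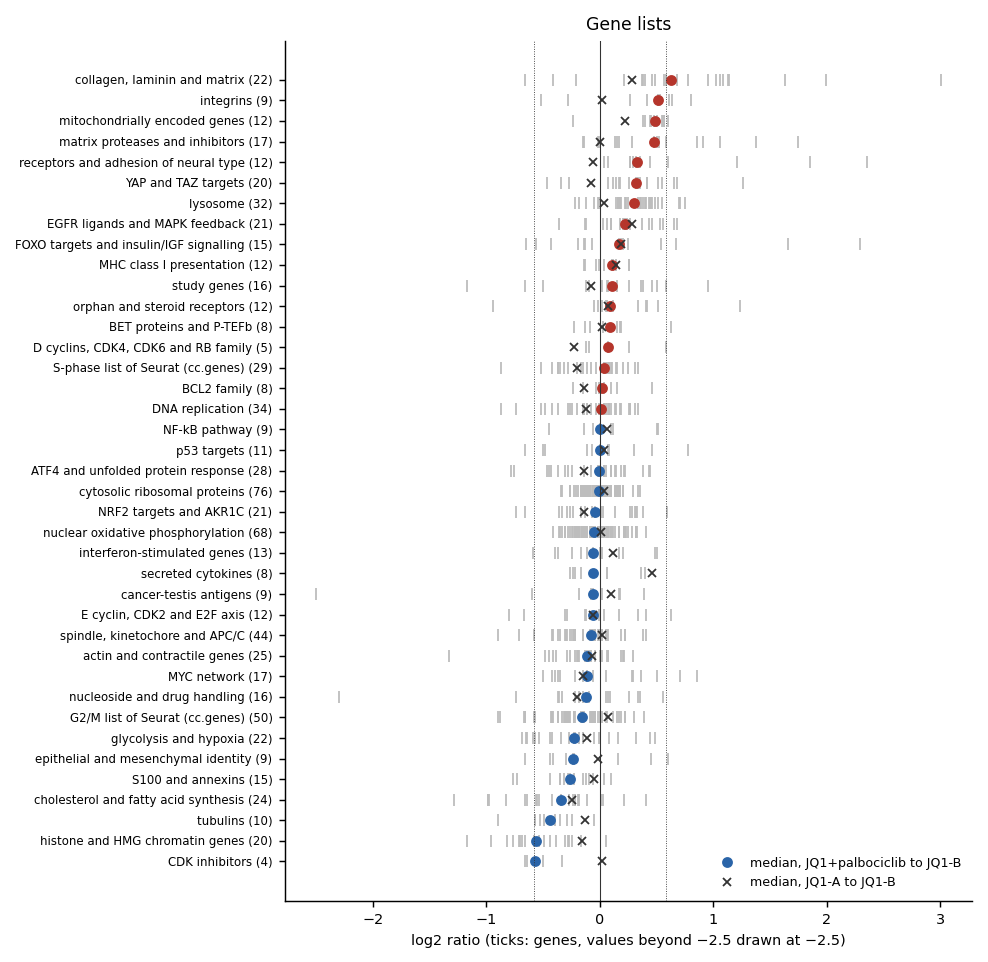
Log2 ratio of JQ1+palbociclib to JQ1-B for the measured genes of the 39 lists (grey ticks, number of genes in brackets), with list medians as circles and the median ratio of JQ1-A to JQ1-B as crosses. Dotted lines mark 1.5-fold. Matrix genes have the highest median (0.63) and the CDK inhibitor and histone and HMG lists the lowest (-0.57 and -0.56), while ribosomal proteins (-0.01) and nuclear oxidative phosphorylation (-0.05) lie near 0.

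Other genes at the top of the ranking had various roles. Of those named here SESN3, FAM20C, FABP4, DNER and Z83851.1 were under 10 CPM in JQ1-B and were compared only through JQ1+palbociclib. SESN3, a FOXO target that restrains mTORC1, was at 32.6 CPM against 6.65 in JQ1-B, 7.6 in JQ1-A, 10.8 in JQ1+paclitaxel and 15.9 in palbociclib alone, and at 0.284 to 0.942 CPM in the 3 libraries with neither drug (ratio to JQ1-B 4.90). IGFBP2, which binds insulin-like growth factors, was at 69.0 CPM against 21.9 in JQ1-B, 40.2 in JQ1-A and 18.5 in JQ1+paclitaxel, and was low in palbociclib alone (5.92 CPM) as in the libraries with neither drug (0.709 to 6.21 CPM). FAM20C, a kinase of secreted proteins, was at 32.2 CPM, close to palbociclib alone at 30.0 CPM and above JQ1-B at 8.03 CPM (ratio 4.01). FABP4, a fatty acid carrier, was at 27.7 against 8.92 CPM (ratio 3.10) but far lower than the 231 CPM of JQ1+paclitaxel. DNER, a Notch ligand gene of neurons, was at 30.0 CPM against 8.82 (ratio 3.41). The unnamed gene Z83851.1, the second highest at 25.0 against 4.53 CPM (ratio 5.51), was not placed by the annotation used here.

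At the other end, SPANXC and CDA were the 2 genes at least 4-fold lower. SPANXC, a cancer-testis antigen gene on chromosome X, had 28 UMIs (1.16 CPM) in JQ1+palbociclib against 442 (21.8 CPM) in JQ1-B, with 20.2 and 21.5 CPM in JQ1-A and JQ1+paclitaxel, 46.3 in palbociclib alone and 48.3 to 99.4 in the libraries with neither drug. All other libraries lay far above it, and the ratio to JQ1-B was 0.0531 (0.0348 to 0.0778). Of its stretches of 50 bases 67.4% occurred in another SPANX transcript, so its count depends on how shared reads were handled, while SPANXD was at 112 against 169 CPM. CDA, the cytidine deaminase that inactivates several nucleoside drugs, was at 7.84 CPM against 38.5 in JQ1-B, 30.8 in JQ1-A, 14.6 in JQ1+paclitaxel, 52.4 in palbociclib alone and 59.8 to 104 CPM in the others (ratio 0.204, 0.173 to 0.239).

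Further low genes were PLAC8 (0.341), which was at 7.96 CPM against 23.3 to 55.5 CPM in the other 7 libraries, CNN3 (0.399), a calponin of actin filaments, EPHB6 (0.406), BASP1 (0.484) and PPARG (0.520), a nuclear receptor of lipid storage. HCFC1R1 was not lowest with both drugs: it was at 135 CPM, lower than the 280 of JQ1-B, the 225 of JQ1-A and the 278 of JQ1+paclitaxel but above the 61.9 of palbociclib alone and the 42.1 to 79.1 of the libraries with neither drug. Its level with both drugs was thus between those with each. The same held for HMGN2, at 398 CPM with both drugs, 363 in palbociclib alone and 771 in JQ1-B. The plot of the 30 named genes gives their levels in all 8 libraries.

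**Figure D3:**
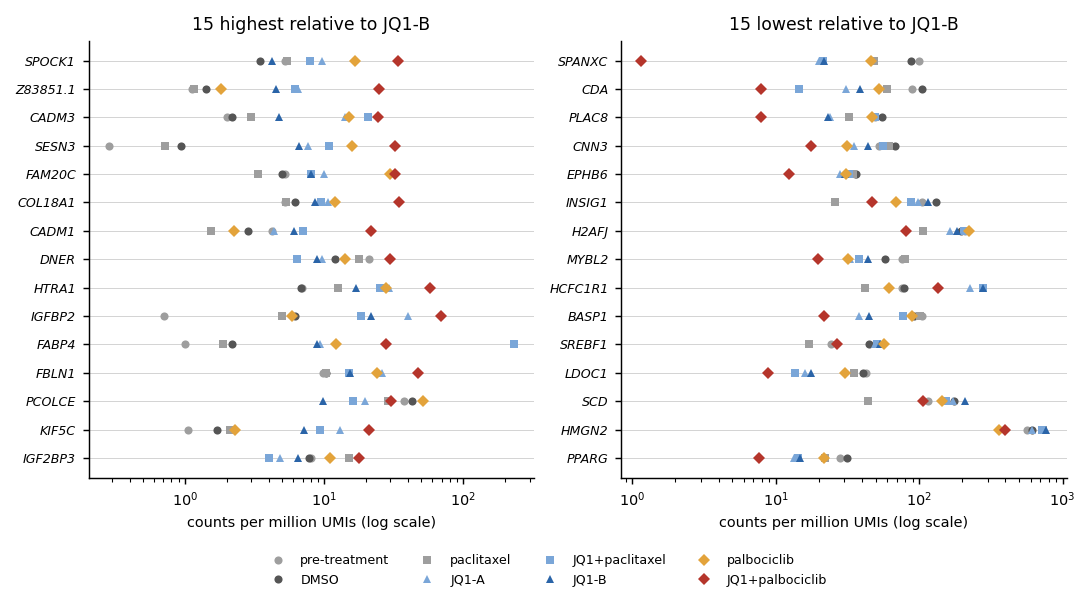
Levels of the 15 highest and 15 lowest genes relative to JQ1-B in each of the 8 libraries, in CPM on a log scale. Each symbol is 1 library, so there are no error bars. JQ1+palbociclib (red) lies apart from the other 7 libraries in most rows. Exceptions include FABP4, where JQ1+paclitaxel is at 231, HMGN2, where palbociclib alone is at 363, and PCOLCE, at 51.8 in palbociclib alone against 30.1. The genes were chosen by their ratios to JQ1-B and JQ1-A, so their distance from those libraries follows from the choice. Several of the highest were under 10 CPM in JQ1-B.

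Palbociclib without JQ1 was compared with DMSO, a pair that shares no library with JQ1+palbociclib and JQ1-B but crosses the experiments. There 373 genes (5.74%) were higher and 1016 (15.6%) lower. Of the 248 genes higher on adding palbociclib to JQ1, 114 were also higher with palbociclib alone, which is 46.0% of the former list and 30.6% of the latter. They included SPOCK1, SESN3, FAM20C, COL18A1 and EGFR. Of the 118 lower genes 66 were also lower with palbociclib alone, 55.9% of the former list and 6.5% of the latter, among them CDA, CDC20, HMGB1 and TUBA1B. The lists met in opposite directions at 1 gene each, GCLC (higher here, lower with palbociclib alone) and AQP3. The median of the matrix list was 0.98 for palbociclib against DMSO, that of the histone and HMG list -0.71, of tubulins -0.96 and of lipid synthesis -0.39, so these 4 lists had the same sign in both pairs. The G2/M and S lists, with medians of -0.68 and -0.81 for palbociclib against DMSO, lay farther from 0 there than the -0.16 and 0.04 on adding palbociclib to JQ1. The difference between the pairs was not tested.

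Adding paclitaxel to JQ1 gave a different set. In JQ1+paclitaxel against JQ1-A 39 genes (0.600%) were higher and 88 (1.35%) lower. With the genes higher on adding palbociclib it shared 4 higher genes (CADM1, FABP4, LHFP and TSPAN13), or 1.61% and 10.3% of the lists, and 24 genes that were lower with paclitaxel added, or 9.68% and 27.3%. These 24 included MMP1, IGFBP2, FBLN1, DNER, NRCAM, VCAN and ITGB4. Of the lower genes 5 were lower with both additions (AKR1C1, AKR1C2, CDA, MGP and S100A3), or 4.24% and 5.68%, and 5 were higher with paclitaxel (AQP3, BASP1, CNN3, ID3 and PLAC8).

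Cell by cell, the matrix and chromatin lists were displaced over most of their distributions. In cells thinned to 10000 UMIs the matrix list had a median of 18 UMIs in JQ1+palbociclib (10th to 90th percentile 9 to 33), 10 in JQ1-B (5 to 23) and 12 in JQ1-A (6 to 27). Of JQ1+palbociclib cells 84.8% lay above the JQ1-B median, against 62.3% of JQ1-A cells and 49.7% of JQ1-B cells themselves. The histone and HMG list had medians of 66 (42 to 99), 97 (52 to 143) and 85 (43 to 130) UMIs, and 11.2% of JQ1+palbociclib cells and 36.9% of JQ1-A cells were above the JQ1-B median. For lipid synthesis the medians were 8, 12 and 10 UMIs, with 16.9% and 31.1% of cells above, and for glycolysis 97, 151 and 140 UMIs, with 16.4% and 40.6% above. The plot of list UMIs per cell shows JQ1-A between the other curves in each case.

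**Figure D4:**
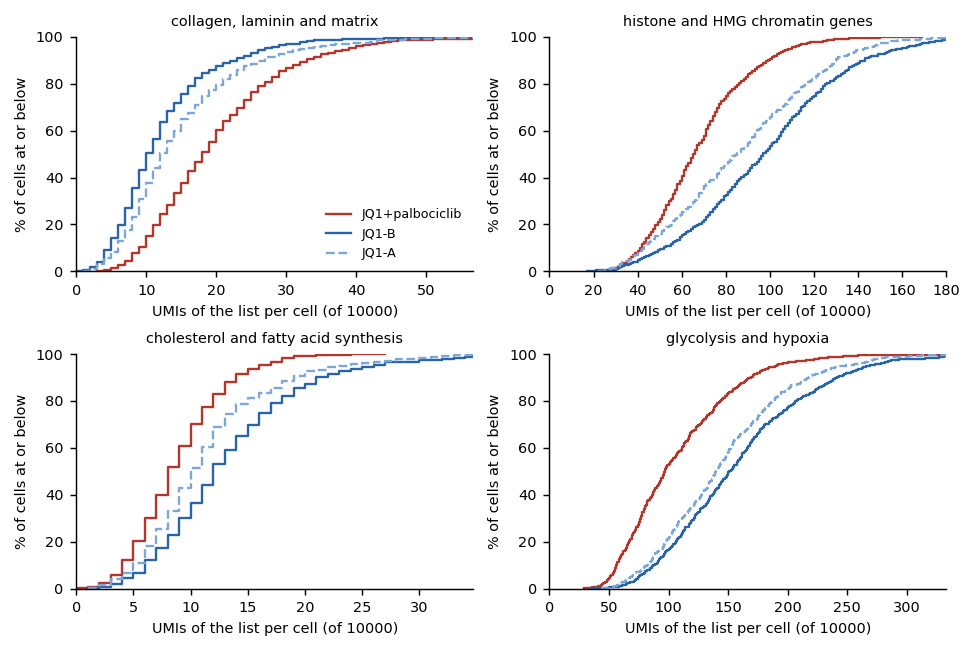
Cumulative share of cells (vertical axis, %) by the UMIs of a list in each cell thinned to 10000 UMIs (horizontal axis) for the matrix, histone and HMG, lipid synthesis and glycolysis lists. Lines are JQ1+palbociclib (972 cells), JQ1-B (837) and JQ1-A (650). The JQ1+palbociclib curve is displaced along most of its length, to the right for matrix genes (median 18 against 10 and 12) and to the left for the other 3 lists.

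Mitochondrial transcripts moved with these lists. The 12 mitochondrially encoded genes had a median log2 ratio of 0.49 in JQ1+palbociclib and 0.22 in JQ1-A, with only MT-ND4 past 1.5-fold (1.51), and thinned cells held medians of 715, 505 and 531 of their UMIs. With totals taken without these genes the matrix list had a median of 0.61 and the histone and HMG list -0.53, close to 0.63 and -0.56 with them.

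Cell cycle phase was scored in the thinned cells. G1 was called in 46.4% of JQ1+palbociclib cells (95% Clopper-Pearson interval 43.2% to 49.6%), 39.8% of JQ1-B cells (36.5% to 43.2%) and 46.5% of JQ1-A cells (42.6% to 50.4%). The share with both drugs was 6.60 points above JQ1-B and level with JQ1-A. G2/M was called in 27.1% of JQ1+palbociclib cells, 33.9% of JQ1-B cells and 33.5% of JQ1-A cells, and S in 26.5%, 26.3% and 20.0%. The G1 difference changed direction with the scoring: when each library was scored by itself G1 was 36.3% against 40.1%, a difference of -3.80 points. In JQ1+palbociclib 56.2% of cells lay near a boundary between phases, against 49.7% in JQ1-B, so these calls do not fix the direction of a G1 difference.

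Within phases the main lists kept their sign. The matrix list had a median log2 ratio of 0.36 among cells called G1, 0.82 among those called S and 0.83 among those called G2/M, the histone and HMG list had -0.26, -0.60 and -0.47, and lipid synthesis -0.34, -0.34 and -0.32. Tubulins were at -0.44, -0.49 and -0.31. Among single genes SPOCK1 was at 2.66, 3.38 and 3.08, CDA at -2.29, -2.15 and -2.46 and CCND1 at 0.48, 0.56 and 0.68. HMGN2 was at -0.78, -1.20 and -0.84 and INSIG1 at -1.21, -1.57 and -1.27. MMP1 varied most among these, at 2.19 in G1 and 2.01 in G2/M but 0.40 in S. The phase calls use the S and G2/M lists themselves, and within G1 the medians of those lists were 0.58 and 0.59, over the genes compared in all cells. CCNA2 was likewise higher within G1 (0.58) and lower within S and G2/M (-0.57 and -0.51). CDCA3, HMGB2 and CKS1B, members of the G2/M list, were also above JQ1-B within G1, at 0.22, 0.17 and 0.82, as was CDK4 (0.38). CKS1B and CDK4 had not passed 1.5-fold in all cells.

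The median variation of single genes between cells was alike in the 3 libraries over the 1814 genes that were high enough to measure it. Such medians cannot show whether cells form groups, and the study reported distinct clusters among JQ1+palbociclib cells. The median ratio of variance to mean was 1.20 in JQ1+palbociclib, 1.20 in JQ1-B and 1.21 in JQ1-A. The part of the squared coefficient of variation left after subtracting counting noise had medians of 0.156, 0.143 and 0.160. Single genes differed more. H2AFJ was lower in JQ1+palbociclib but more unequal between cells, at 1.46 against 0.502 in JQ1-B and 0.593 in JQ1-A. TUBA1B (1.14 against 0.585 and 0.651) and GCLM (0.789 against 0.205 and 0.290) were also more unequal with both drugs. CYR61 and CTGF, matricellular targets of YAP, were more even in JQ1+palbociclib (0.412 and 0.763) than in JQ1-B (5.72 and 3.50), but in JQ1-A they were also low (0.672 and 1.04), so that JQ1-B was the library apart. HMOX1 was at 1.06 in JQ1+palbociclib against 3.32 in JQ1-B and 3.59 in JQ1-A. These genes were picked after their values were seen.

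Genes higher and lower with both drugs were unevenly spread over the chromosomes, set beside 3.81% higher and 1.81% lower over all genes. On chromosome 20 the median log2 ratio of 188 genes was 0.226, with 18 higher (9.57%) and 1 lower (0.532%), and 83.0% of genes above 0. On chromosome 2 that of 451 genes was 0.207, with 39 higher (8.65%), 0 lower and 84.7% above 0. FN1, IGFBP2, DNER and KIF5C lie on it. Chromosomes 7 (0.155), 21 (0.142), 9 (0.129) and 11 (0.110) followed. At the low end were chromosomes 13 (-0.178), 12 (-0.170) and 16 (-0.163). Chromosome 13 had 2 higher and 5 lower genes (2.13% and 5.32% of 94). Chromosome 12 had 2 and 13 (0.580% and 3.77%), and chromosome 16 had 2 and 15 (0.719% and 5.40%). Above 0 were 24.1% of the genes of chromosome 12 and 27.3% of those of chromosome 16.

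Against JQ1-A the medians were of the same sign and similar size, with 0.188 on chromosome 20, 0.237 on chromosome 2, -0.147 on chromosome 13, -0.127 on chromosome 12 and -0.0988 on chromosome 16. Between JQ1-A and JQ1-B they ranged from -0.114 to 0.0489 over all chromosomes. For palbociclib against DMSO chromosomes 2 and 20 had medians of -0.202 and -0.0751 beside -0.163 over all genes. Genes on a chromosome are not replicates, and no test was made of these medians. The plot of medians by chromosome sets the comparisons side by side.

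**Figure D5:**
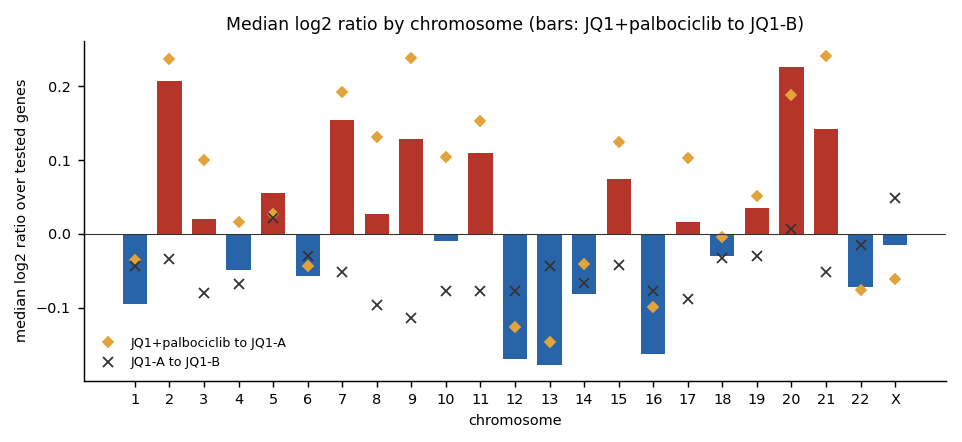
Median log2 ratio over the measured genes of each chromosome. Bars give JQ1+palbociclib to JQ1-B, diamonds JQ1+palbociclib to JQ1-A and crosses JQ1-A to JQ1-B. Bars and diamonds lie between 0.188 and 0.237 on chromosomes 2 and 20 and below 0 on chromosomes 12, 13 and 16, while the crosses stay between -0.114 and 0.0489.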

How the data were processed

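Libraries had been prepared with the Chromium Single Cell 3' kit, and the authors aligned reads to hg19 and counted UMIs with Cell Ranger. The deposited values are whole-number counts of UMIs per gene and cell, not normalized, for 18955 genes seen in at least 3 cells and 5738 cells. The labels also name Seurat. Counts were summed per library and divided by library totals (CPM). Genes averaging 10 CPM or more over JQ1+palbociclib and JQ1-B were compared, and a ratio of 1.5 or beyond was called. Intervals are exact binomial (95%) and cover counting error only. With 1 library a side no p-value was computed. For per-cell values, cells passing the filter of the study (1 to 15% mitochondrial UMIs, at least 2000 genes; 991 and 847 cells) were thinned to 10000 UMIs, leaving out 19 and 10 shallower cells, and scored with scanpy 1.11.5. No doublet caller was run, since a single line was present.

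Named genes were the 15 highest and 15 lowest among those past 1.5-fold against both JQ1 libraries, members of each list past 1.5-fold (at most 8) and all members of the cyclin, CDK inhibitor, BET and study gene lists. Comparisons, members and lists were chosen with earlier results of these data known. The list of study genes was taken from the study, and 1 of its 16 members was higher and 2 were lower. Gene positions are hg19, from GENCODE lifted to that build, and promoters are GRCh38.p14, where 5379 of 6502 genes (82.7%) matched. Alternatives included TMM factors from edgeR 4.0.16. Simulated data were used to test the scripts.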

Additional observations from a re-analysis of the deposited data

How the results depend on the processing

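Each side is 1 library of pooled cultures, so counts, ratios and intervals carry no error between cultures. No paired analysis was possible because each group has 1 library. Drawing equal numbers of cells from each library, the filter of the study, TMM factors, means over cells, totals without mitochondrially encoded genes and leaving out cells in the top 5% of UMIs each left the main counts within 1.5-fold. The level required moved them more, and depth limits what can be said of low genes. Requiring 10 CPM in JQ1-B, an alternative chosen after seeing the data, gave 176 higher and 144 lower genes. At 5 CPM 472 genes were higher and 187 lower (270 and 87 against both JQ1 libraries), with 169 past the mark between JQ1-A and JQ1-B and 274 for JQ1+paclitaxel. At 50 CPM the counts were 35, 40, 22, 17, 16 and 15, with 362 for palbociclib against DMSO, and the S and G2/M medians were -0.36 and -0.30. With no filter they were 3485, 2553, 1887, 1699, 4782 and 4959, with 7426 for palbociclib. At 2-fold they were 49, 12, 25, 6, 8 and 18, with 225 for palbociclib. Main totals of the last 3 pairs were 75, 127 and 1389.

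With JQ1-A as the JQ1 library the G2/M median was -0.27 and KRT7 changed sign (log2 ratio 0.13). In cells called G1, 121 genes differed between JQ1-A and JQ1-B, 228 for JQ1+paclitaxel and 910 for palbociclib, and the S and G2/M medians were 0.44 and 0.24 with the level of 10 CPM applied anew in these cells, against 0.58 and 0.59 over the genes compared in all cells. Of the genes past 1.5-fold, CCNA2 (0.58), CDCA3 (0.22) and HMGB2 (0.17) changed sign. CDCA3 and HMGB2 belong to the G2/M list that the phase calls use. The G1 share of JQ1+palbociclib was 36.3% with scores within each library and 42.4% without thinning. Of the 101 called named genes 100 kept their direction against JQ1-A, 67 of them still past 1.5-fold. The highest and lowest named genes had been chosen as past 1.5-fold against JQ1-A too, so their part of this tally was fixed beforehand. In cells called G1, 98 of the 101 kept their direction, 69 past the mark. The cause of these shifts was not tested.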
